A study of Mus musculus with 4 samples.

Results

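The nuclei described here were oligodendrocyte nuclei of the photothrombotic brain lesion and of the parenchyma around it, and 389 of 22905 barcodes were selected on their counts of unique molecular identifiers (UMIs). These 22905 were the barcodes, of 23489 in all, with at least the UMI count at the lowest 2.5% (757.2, taken as a whole number). The rule asked for 6 or more UMIs over Mog, Mag, Mobp, St18 and Prr5l, with at least 3 of these 5 genes seen and Mog or Mag among them. It allowed at most 1 UMI over Csf1r, Bnc2, Slc17a7, Gad2, Aqp4 and Flt1, which mark myeloid cells, fibroblasts, excitatory neurons, inhibitory neurons, astrocytes and endothelium. The levels of these 11 genes therefore chose the nuclei and are no result. In the library labelled control 168 nuclei came from the lesion and 27 from the parenchyma, and in the library labelled Cxcl12-cKO 168 and 26.

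Brain tissue was taken 21 days after photothrombotic (PT) injury, a focal cortical ischaemia made by illuminating a circulating dye. Control mice were labelled WT. The cKO mice carried Col1a2(creER) and Cxcl12(flox), so that a tamoxifen-inducible Cre under the Col1a2 promoter, which is active in fibroblasts, was to delete the chemokine gene Cxcl12 there and not in oligodendrocytes. Each genotype was 1 library of pooled nuclei from 1 male and 1 female mouse, the mice were 7 to 21 weeks old with no age given for each, and no uninjured tissue was analysed here. The parenchyma was perilesional cortex of the same injured brains. With 1 library for each genotype, differences between genotypes have no replicate check and no p-value. Lesion and parenchyma were also compared within each of the 4 mice, the female and male nuclei of a library being told apart by Xist and Y-linked UMIs. All intervals are 95% intervals of counting error only.

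Oligodendrocytes wrap axons of the central nervous system in myelin, a stack of membrane rich in lipids and held together by proteins such as myelin basic protein. They arise from precursor cells, pass through a newly formed stage with its own transcripts, and then keep the myelin of mature axons for long periods. After injury, mature oligodendrocytes are known to take on reactive states in which complement, antigen presentation and interferon-response genes are expressed, while precursors can supply new oligodendrocytes.

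The region of each nucleus came from a short DNA tag attached to the nuclei before mixing, and the tags are shown because every comparison of lesion with parenchyma rests on them. Each tag sequence is given in full as deposited.
CMO309, control lesion: gttgatctataacag
CMO310, control parenchyma: gcaggaggtatcaat
CMO311, cKO lesion: gaatcgtgattcttc
CMO312, cKO parenchyma: acatggtcaacgctg
The own tag had the most UMIs in all 389 oligodendrocyte nuclei, and in 388 it had at least 5 times those of the next tag. Because the region was itself assigned from the tags, this order was fixed in advance and is no independent check of the regions. Its median was 4100.5 and 4743.5 UMIs in control and cKO lesional nuclei and 2306 and 3043.5 in parenchymal nuclei. No barcode of these nuclei occurred in both libraries, although 47 barcodes of the whole series did.

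Oligodendrocyte markers that the rule did not use were present throughout. Mbp, which encodes myelin basic protein, was seen in 166 of 168 and 162 of 168 lesional nuclei and in all parenchymal nuclei. With each nucleus thinned to that same minimum UMI count, Mbp was still seen in 85.1% to 96.3% of the nuclei of each group and in 4.41% of parenchymal neurons, which had a median of 22196 UMIs before thinning. The 5 rule genes together had a median of 26 UMIs in the lesional nuclei of either library and of 30 and 34.5 in the parenchymal ones. Near the limits, 5 nuclei had 6 or 7 such UMIs and 2 barcodes outside had 5, while 93 nuclei carried 1 UMI of the other cell types and 85 barcodes were left out for 2 or more. These 85 had a median of 7163 UMIs.

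Lesional nuclei had medians of 2608 UMIs in control and 2534 in cKO, and parenchymal nuclei of 3253 and 3486.5. Their summed UMIs were 514275 and 540377 in the lesion but only 104963 and 107237 in the parenchyma, so 3 UMIs stood for 5.83 and 5.55 CPM (counts scaled to a fixed total of UMIs, by which levels are given below) in the former and up to 28.6 CPM in the latter. No doublet caller was run. Both Xist and Y-linked UMIs occurred in 37 nuclei (9.51%), which are doublets or carry free RNA. Neither was seen in 79 lesional and 10 parenchymal nuclei. These nuclei and the 37 were left out of all values given by mouse. Cxcl12 in the other lesional barcodes went against the genotype label, at 59.9 CPM (2052 UMIs) under the control label and 127 CPM (3995 UMIs) under the Cxcl12-cKO label. Which part of the gene is deleted was not stated. In the oligodendrocyte nuclei Cxcl12 had 1 to 5 UMIs in each group.

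Oligodendrocyte nuclei made up a larger share of lesional than of parenchymal barcodes in both libraries. In the lesion the share was 2.02% in control (168 of 8321, exact binomial interval 1.73% to 2.34%) and 2.06% in cKO (168 of 8169, 1.76% to 2.39%). In the parenchyma it was 0.836% (27 of 3228, 0.552% to 1.21%) and 0.816% (26 of 3187, 0.534% to 1.19%). The log2 ratio of lesion over parenchyma was 1.25 (0.68 to 1.92) in control and 1.31 (0.73 to 1.99) in cKO. It was above 0 in all 4 mice, at 1.50 and 1.19 in the control female and male and 1.36 and 2.03 in the cKO female and male, the last on 3 parenchymal nuclei. Over the 4 mice the mean was 1.52 ± 0.36 (SD), with p = 0.125 in a two-sided exact sign-flip permutation test, the smallest p that 4 mice allow. These are shares of the captured barcodes, of which 3285 in the parenchyma met a marker rule for excitatory neurons, and not numbers of cells in tissue.

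Between genotypes the share was close to equal. The log2 ratio of cKO over control was 0.03 (-0.29 to 0.34) in the lesion and -0.03 (-0.87 to 0.80) in the parenchyma. These intervals still admit differences of about the sizes at their ends.

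**Figure D1:**
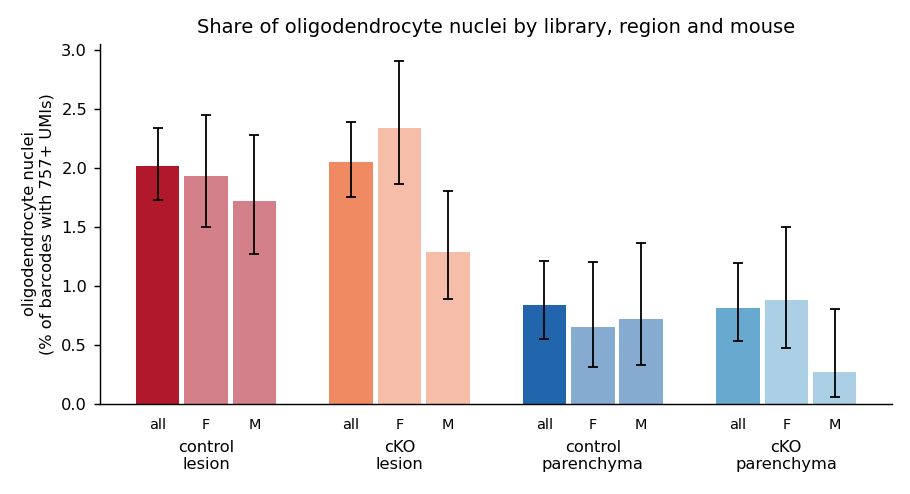
Oligodendrocyte nuclei as a percentage of barcodes above the UMI minimum in each library and region, for all nuclei and for nuclei assigned to the female (F) or male (M) mouse; bars are shares and lines are exact 95% binomial intervals. The lesional bars of all nuclei stand at 2.02% and 2.06% and the parenchymal ones at 0.836% and 0.816%, and their intervals do not overlap between regions.

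For gene levels, UMIs were summed over the nuclei of each region in each library and given as CPM. A gene was compared when it had 20 or more UMIs over both regions in each library, and it was counted as different when its log2 ratio was 1 or more in size, in the same direction, with an interval leaving out 0, in both libraries. Of 4494 genes compared, 94 were higher in lesional nuclei (2.09%) and 67 were lower (1.49%). The median log2 ratio of all genes was 0.10 in control and 0.12 in cKO. Of the 94 genes, 80 were also higher in the lesion in each of the 4 mice, as were 690 of all 4494, and of the 67, 30 were lower in each mouse, as were 225 of all.

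The same genes were tested over mice, with UMIs summed by mouse and region and the mouse as a block in edgeR's quasi-likelihood test. At a Benjamini-Hochberg adjusted p under 0.05, 47 of 4494 genes were higher (1.05%) and 23 lower (0.512%) in the lesion, of which 36 were among the 94 and 20 among the 67. At an unadjusted p under 0.05 it was 88 of the 94 and 53 of the 67, and over all 4494 genes 303 were higher and 111 lower. The 94 and 67 were chosen from the same counts, so these overlaps are no independent support. C4b had a log2 ratio of 2.11 (SE 0.47, adjusted p = 0.002), Piezo2 of 2.03 (SE 0.48, adjusted p = 0.00331), Rnf213 of 6.11 (SE 1.71, adjusted p = 0.0293), Stat3 of 1.87 (SE 0.55, adjusted p = 0.0435) and Hapln2 of -1.93 (SE 0.52, adjusted p = 0.0188). Rnf213 had no parenchymal UMI, so its ratio and SE here are not a measured size, and only the lower bounds given below hold. These genes are described below. Several genes counted as different from the libraries missed this threshold, with adjusted p = 0.0612 for Kit, 0.0658 for Cd9, 0.195 for Col13a1, 0.198 for Bcl3 and 0.174 for Nlrc5. The calls were lost without the cKO male, which had 3 parenchymal nuclei. No gene then passed in the same edgeR fit, although 201 genes were higher and 124 lower at an unadjusted p under 0.05, and C4b then had an adjusted p of 0.164.

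Genes of the reactive oligodendrocyte list were higher in lesional nuclei or did not pass. Of 16 compared, 6 were higher in the lesion (C4b, Stat3, Cd9, Ctsb, Parvb and Bcl3) and none was lower, with medians of 1.45 and 1.64. C4b, which encodes complement component C4, stood at 607 CPM in lesional and 210 in parenchymal nuclei of control, and at 590 and 83.9 in cKO. Its log2 ratios were 1.50 (0.91 to 2.23) and 2.74 (1.87 to 3.96). C4b has a near-identical neighbour, C4a, so part of its reads could belong to either. With nuclei thinned to the minimum UMI count, C4b was seen in 44.0% and 42.9% of lesional against 11.1% and 7.69% of parenchymal oligodendrocyte nuclei, and in 0.0609% of parenchymal neurons.

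Stat3, a transcription factor activated by cytokines, was at 264 and 85.7 CPM in control lesion and parenchyma and at 217 and 65.3 in cKO (log2 ratios 1.55 and 1.64). Cd9, a tetraspanin of the cell membrane, was at 270 and 95.3 CPM and at 305 and 93.3 (1.44 and 1.65). Bcl3, a partner of NF-κB, had 23 and 30 UMIs in lesional and none in parenchymal nuclei, which makes it at least 1.56-fold and 1.98-fold higher against a floor of 3 UMIs for each library. The lesional level of each of these genes exceeded the parenchymal one in all 4 mice. Other members did not pass in both libraries. The long non-coding RNA Neat1 was at 3578 against 1858 CPM in control and 4227 against 1212 in cKO (0.94 and 1.80), and passed over mice (log2 ratio 1.29, SE 0.38, edgeR adjusted p = 0.0429). The alarmin gene Il33 had log2 ratios of 0.34 and 0.68. Ctsb, a lysosomal protease gene that myeloid cells also express, was higher in other lesional barcodes (203 and 300 CPM) than in lesional oligodendrocyte nuclei (136 and 220).

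Immune-response genes were sparse, and few had enough UMIs to compare. In the interferon list 5 of 28 genes could be compared and 2 were higher, of which 1 is described. Rnf213, an interferon-inducible ubiquitin ligase gene, had 52 and 41 lesional UMIs and none in the parenchyma, at least 3.54-fold and 2.71-fold. In the antigen presentation list 3 of 17 were compared and 1 was higher: Nlrc5, the activator of MHC class I genes, with 38 and 34 lesional UMIs against 0 and 1. H2-K1, one of the class I genes it controls, had log2 ratios of 2.19 and 0.96 and did not pass in cKO, and reads of such polymorphic gene families are uncertain. Rnf213 was also abundant in the other lesional barcodes, at 150 and 159 CPM against 101 and 75.9 in the oligodendrocyte nuclei. Nlrc5 was at 50.0 and 53.3 CPM in those barcodes, not far below the 73.9 and 62.9 in the oligodendrocyte nuclei.

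Ratios of genes at 0 depend on the 0.5 UMIs added to each sum, so their order by size is approximate. Among the 12 genes with the largest ratios that were at least as high in oligodendrocyte nuclei as in the surrounding lesional barcodes, a channel, a kinase receptor and a collagen had 0.769% to 14.4% of their lesional UMIs in the nuclei rich in newly formed transcripts that are described below. Piezo2, a mechanically gated ion channel gene, was at 482 CPM in control lesion and 105 in parenchyma, and at 668 and 103 in cKO, with log2 ratios of 2.14 (1.34 to 3.22) and 2.64 (1.85 to 3.72). It was seen in 82 and 112 of the lesional nuclei and in 7 and 6 parenchymal ones. Kit, the receptor tyrosine kinase for stem cell factor, had 57 and 73 lesional UMIs in 28 and 36 nuclei and 1 UMI in each parenchymal group, with ratios of 2.97 (1.00 to 8.87) and 3.28 (1.33 to 9.18). Col13a1, a collagen of the plasma membrane, had 45 and 48 lesional UMIs against 1 and 0. The other lesional barcodes held 147 and 198 CPM of Piezo2, 45.7 and 47.3 of Kit and 14.2 and 9.44 of Col13a1, each below the level in oligodendrocyte nuclei.

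Peds1, which encodes the desaturase that makes plasmalogens, a phospholipid class abundant in myelin, had 26 and 41 lesional and no parenchymal UMIs (at least 1.77-fold and 2.71-fold). The other lesional barcodes held nearly as much Peds1 in control, at 48.0 CPM against 50.6 in oligodendrocyte nuclei, and 58.5 against 75.9 in cKO. Ntng2, a membrane-anchored netrin gene, had 44 and 78 against 0 and 3, and 40.2% of its lesional UMIs lay in the rich nuclei. The rest of the 12 were Bcl3 and Nlrc5, given above, and Sox4, Grik3, Cdh13, Col20a1 and D430041D05Rik. These 5 were seen in 10 to 31 lesional nuclei of each library and had 56.7% to 77.0% of their lesional UMIs in the rich nuclei. A further 5 genes were named that had large ratios but were lower than in the surrounding barcodes of a library or of both. They were Rnf213, Col6a2, Ly86, Dock8 and Sdk2, all with no parenchymal UMI. Col6a2 was lower in cKO only (61.1 against 75.9 CPM) and not in control (73.9 against 67.2 CPM). Col6a2 is a fibroblast collagen gene, and Ly86 and Dock8 are myeloid or leukocyte genes.

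Of the 94 genes higher in the lesion, 10 were mitochondrial genes. Mitochondrial UMIs made up 1.16% and 1.51% of the summed lesional UMIs against 0.405% and 0.377% in the parenchyma. Malat1, a nuclear long non-coding RNA often high in clean nuclei, went the other way, with 42491 against 91947 CPM in control and 48203 against 113972 in cKO (log2 ratios -1.11 and -1.24). Malat1 was lower in the lesion in all 4 mice, and 9 of the 10 mitochondrial genes were higher in all 4. The part of these measures in the other region differences was not tested.

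**Figure D2:**
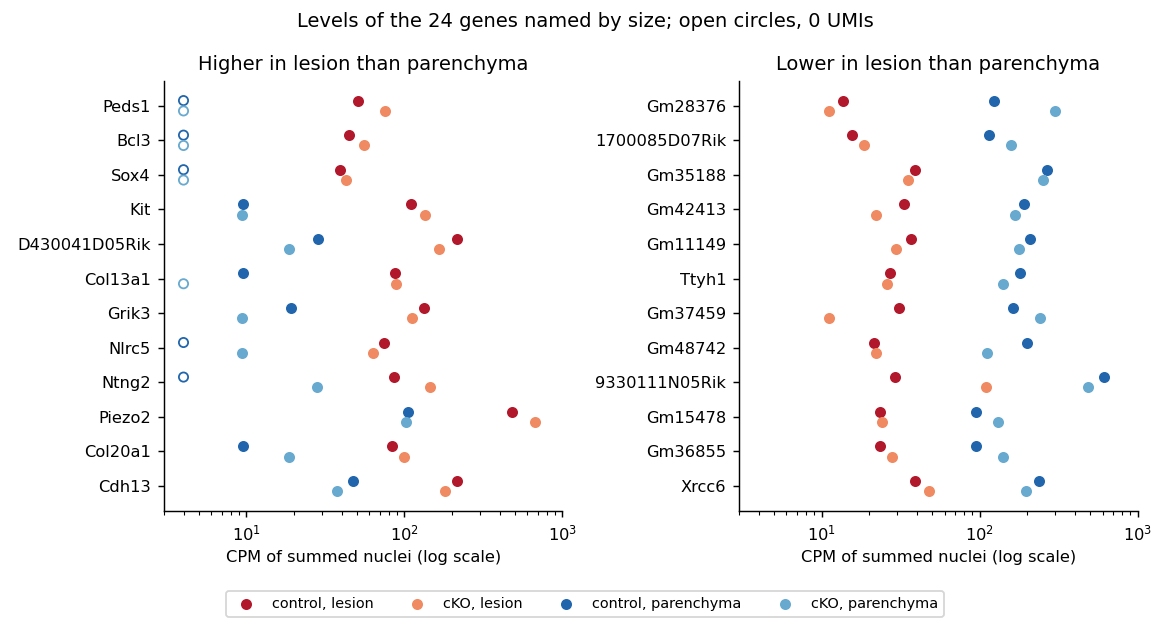
Levels in CPM, on a log axis, of the 12 genes with the largest ratios in each direction, in summed lesional (red, orange) and parenchymal (dark and light blue) oligodendrocyte nuclei of the libraries labelled control and cKO; open circles mark 0 UMIs. Lesional and parenchymal points are apart for every gene in both libraries, and Peds1, Bcl3, Sox4, Col13a1, Nlrc5 and Ntng2 had 0 UMIs in the parenchymal nuclei of 1 or both libraries.

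Genes with only a model or clone name made up 24 of the 67 that were lower in the lesion (35.8%), 4 of the 94 that were higher and 136 of all 4494 (3.03%). Of the 12 with the largest ratios, 10 carried such a name. An example is Gm42413, at 33.1 against 191 CPM in control and 22.2 against 168 in cKO (-2.52 and -2.90), and lower in the lesion in all 4 mice. The other 2 were Xrcc6, which encodes a subunit of the Ku DNA-repair complex (38.9 against 238 and 48.1 against 196 CPM), and Ttyh1, a membrane protein gene also expressed by astrocytes. Named with them, as lower than in the surrounding parenchymal barcodes of a library or of both, were the neuronal or widely expressed genes Epha5, Sorcs3, Ntm, Snhg14 and Strbp. Among genes of known oligodendrocyte function, Hapln2, which encodes a protein that ties the matrix at nodes of Ranvier, was at 75.8 against 219 CPM in control and 44.4 against 187 in cKO, with ratios of -1.54 (-2.31 to -0.72) and -2.08 (-2.99 to -1.14). It was lower in all 4 mice and almost absent from other barcodes (0.38 to 0.763 CPM). Srebf2, the transcription factor that drives cholesterol synthesis, was at 83.6 against 200 and at 61.1 against 140 CPM (-1.28 and -1.22), and was the only 1 of 19 cholesterol genes with enough UMIs to compare. It was lower in 2 of the 4 mice, with an edgeR adjusted p of 0.763 over mice.

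The main myelin genes differed little between regions. None of the 16 myelin structure genes compared passed in either direction, with medians of 0.06 in control and -0.27 in cKO, and their summed level was 13176 and 13274 CPM in the lesion against 13614 and 15265 in the parenchyma. Mbp was at 3564 CPM in control lesion and 4087 in parenchyma, and at 3597 and 4672 in cKO (-0.20 and -0.38). Among the others, Mal, a membrane protein gene of compact myelin, was nearest to the limit on the lower side (177 against 438 and 192 against 336 CPM, -1.32 and -0.82), followed by Ermn, a cytoskeletal protein gene of mature oligodendrocytes (-0.98 in both libraries). Claudin 11 (Cldn11), the tight-junction protein of myelin, had ratios of 0.55 and 0.60 and was higher in the lesion in all 4 mice.

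None of 11 myelin lipid genes compared passed either (medians -0.62 and -0.24). Ugt8a, the enzyme gene for galactosylceramide, had ratios of 0.11 and -0.29. Aspa, which breaks down N-acetylaspartate, was at 478 against 734 and 596 against 774 CPM (-0.62 and -0.38). Of 12 transcription factors of the lineage compared none passed (medians 0.41 and 0.03), with Sox10 at -0.30 and -1.02 and Myrf, the regulator of myelin genes, at 0.62 and 0.56. Of the mature-state genes, none of 12 passed in the list led by Ptgds and Il33 and none of 3 in the list led by Klk6. In the former Grm3, a glutamate receptor gene, had ratios of -1.53 and -0.72 and Apod, a lipid carrier gene, of 0.71 and 1.02.

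Genes through which oligodendrocytes meet axons were likewise close to equal. Of 19 axon contact and junction genes 1 was lower (Hapln2) and none higher, with medians of 0.03 and 0.17, and Pcdh9, the most abundant of them, was at 16835 and 18609 CPM in the lesion against 14005 and 17802 in the parenchyma. Of 14 axon growth inhibitor and guidance genes 1 was lower, the ephrin receptor gene Epha5 (-1.72 and -1.31), which was also lower than in surrounding parenchymal barcodes. It was lower in 2 of the 4 mice, and without nuclei rich in transcripts of other cell types its ratios were -1.48 and -0.58, which no longer passed. Rtn4, which encodes the growth inhibitor Nogo, had ratios of 0.49 and 0.30. None of 13 channel and transporter genes passed (medians 0.02 and -0.02), though the kainate receptor gene Grik2 was at 3031 against 1000.4 CPM in control and 2891 against 1576 in cKO (1.59 and 0.87). None of 4 iron genes passed (medians -0.01 and -0.23), and transferrin (Trf) had ratios of 0.27 and 0.19.

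Transforming growth factor-β (TGFβ) is released from its latent form by αv integrins and acts through receptors and Smad proteins. None of the 7 genes of this list that could be compared passed (medians 0.48 and 0.28). Itgav and Itgb8, the αv and β8 integrin chains, had ratios of 0.13 and 1.21 and of 0.08 and -0.52. Smad7, an inhibitor of the pathway, had 0.48 and -0.57, and the receptor gene Tgfbr1 had 1.21 and 0.28. In the p53 list 1 of 2 genes compared was higher in the lesion: Mdm2, the ligase gene that restrains p53, at 181 against 76.2 and 178 against 83.9 CPM (1.17 and 1.01), with an edgeR adjusted p of 0.784 over mice. None of the 3 genes compared passed in the list of unfolded protein and integrated stress, and neither did the 2 of the heat shock and immediate early list.

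Newly formed oligodendrocyte genes were higher in the lesional sums, and a small number of nuclei held most of these UMIs. Of 12 genes compared, 3 were higher in the lesion (Frmd4a, Tns3 and Cnksr3), with medians of 0.92 and 1.05. Frmd4a, which encodes a scaffold protein of the cell cortex, was at 3910.4 against 972 CPM in control and 2406 against 382 in cKO (2.00 and 2.64). With thinned nuclei, however, it was seen in 22.6% and 20.8% of lesional and in 25.9% and 15.4% of parenchymal nuclei, and in 56.8% of parenchymal neurons. In control the summed level and the share of nuclei thus gave different orders. Over mice the edgeR adjusted p of Frmd4a was 6.83e-10, but it was 0.484 with robust estimation of the spread.

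Counted by nucleus, the newly formed list had a median of 32.8 UMIs per 10000 in most oligodendrocyte nuclei, with a long tail. At a limit of 200 per 10000, set after the data had been seen, 26 nuclei were rich in these transcripts, with a median of 486. The limit cuts a range and does not define a cell type: 357 nuclei lay below 100, 4 from 100 to 150, 2 from 150 to 200 and 6 from 200 to 300. Rich nuclei were 14 of 168 in control lesion (8.33%), 11 of 168 in cKO lesion (6.55%), 1 of 27 in control parenchyma and 0 of 26 in cKO parenchyma. The share was 7.44% over both lesions (25 of 336, exact binomial interval 4.87% to 10.8%) and 1.89% over both parenchymas (1 of 53, 0.048% to 10.1%). These intervals overlap, and the difference between the shares was not tested. Rich lesional nuclei had a median of 5483 UMIs and the other lesional nuclei 2439, and 3 of the rich nuclei carried UMIs of both sexes.

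**Figure D3:**
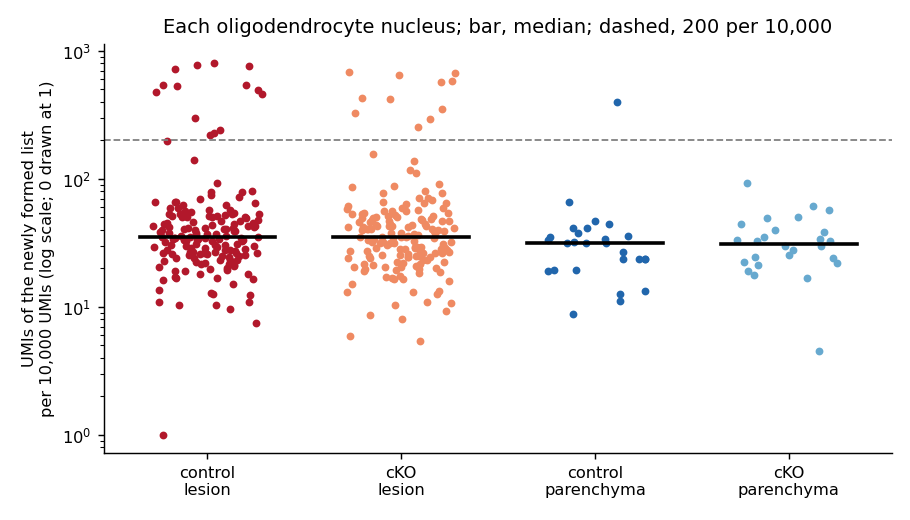
UMIs of the newly formed oligodendrocyte list per 10000 UMIs in each oligodendrocyte nucleus, on a log axis, by library and region; each point is a nucleus and the line is the limit of 200. Most nuclei lie around 32.8, the median below the line, and 25 of the 26 nuclei above the line are lesional.

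The rich nuclei and the other lesional nuclei carried different parts of the region difference. The 25 rich lesional nuclei held 92.8% of the lesional Frmd4a UMIs, 77.0% of D430041D05Rik, 73.1% of Cdh13, 69.5% of Grik3 and 65.1% of Sox4, a transcription factor gene of immature neural cells. Frmd4a is a gene of the list that chose the rich nuclei, so its share in them is no independent result. Sox4 was at 189 CPM in them and at 16.6 in the other lesional nuclei. They held 14.4% of Piezo2, 2.69% of C4b, 2.15% of Col13a1, 0.769% of Kit and 0% of Bcl3. In the other lesional nuclei C4b was at 677 CPM against 151 in the other parenchymal nuclei, Piezo2 at 575 against 107, Kit at 142 against 9.73 and Col13a1 at 100 against 4.86. Without the rich nuclei 78 of 4054 genes were higher in the lesion, of which 64 were among the 94, and 67 were lower, of which 58 were among the 67. Frmd4a then had ratios of -0.76 and -0.49. Of the 17 genes named by size as higher in the lesion, 7 no longer passed. Cdh13 fell to ratios of 0.51 and 0.54 and D430041D05Rik to 0.62 and 1.43. Sox4 (1.07 and 2.35), Grik3 (3.39 and 1.37), Col20a1 (2.42 and 1.48), Dock8 (3.18 and 3.71) and Sdk2 (1.07 and 1.73) had both ratios above 1. The intervals of all of these but Dock8 held 0 in a library or in both. In control, Sox4 and Sdk2 were then at 9.48 CPM in the lesion and absent from the parenchyma. That is below the level of 3 parenchymal UMIs, so their ratio of 1.07 depends on the 0.5 added. Of the 17 named as lower, Strbp no longer passed (-0.85 and -1.44).

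**Figure D4:**
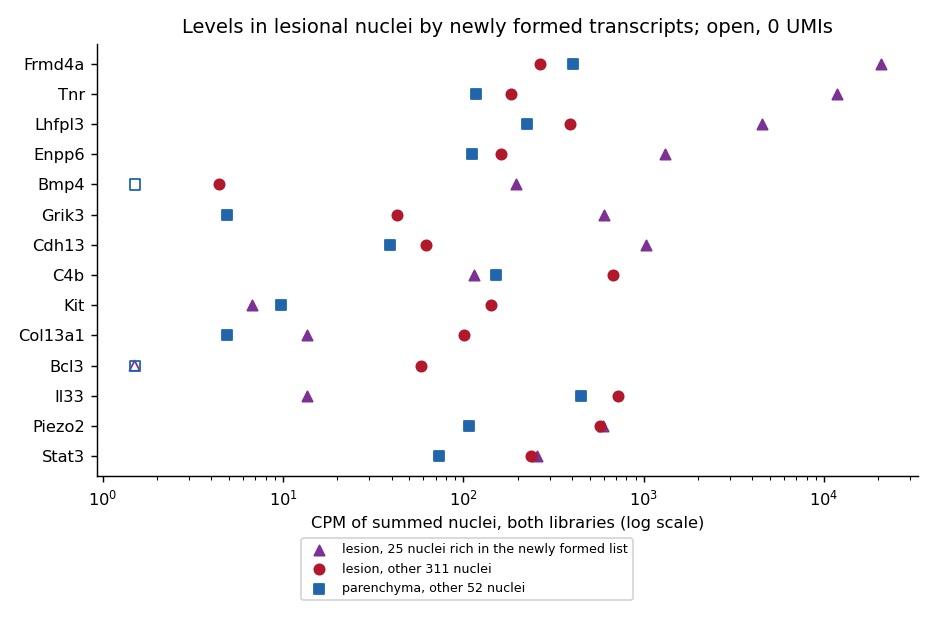
Levels in CPM, on a log axis, of selected genes in lesional nuclei rich in newly formed transcripts, in the other lesional nuclei and in the other parenchymal nuclei, both libraries together; values of 0 are drawn at the left edge. Frmd4a, Grik3 and Cdh13 are highest in the rich nuclei, whereas C4b, Kit and Col13a1 are highest in the other lesional nuclei. Frmd4a, Enpp6 and Bmp4 belong to the list that chose the rich nuclei.

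Precursor transcripts went with the same nuclei. Of 6 precursor genes compared 2 were higher in the lesion in both libraries, Tnr, a matrix glycoprotein gene, and Lhfpl3. Over mice their edgeR adjusted p was 4.03e-08 for Tnr and 7.05e-05 for Lhfpl3, but 0.839 and 0.890 with robust estimation of the spread. Tnr was at 2275 against 1077 CPM in control and 1384 against 46.6 in cKO (1.07 and 4.76), and the rich nuclei held 91.3% of its lesional UMIs, at 11817 CPM, compared with 4614 CPM in 109 precursor nuclei of the series. Lhfpl3 was at 4546 CPM in the rich and 7758 CPM in the precursor nuclei. The precursor nuclei were chosen on UMIs of Pdgfra, Cspg4, Lhfpl3, Tnr, Sox6 and Vcan. The levels of Tnr and Lhfpl3 in the precursor nuclei are therefore no independent result. Enpp6, a marker of newly differentiating oligodendrocytes, was at 1308.5 CPM in the rich nuclei, 161 in the other lesional nuclei and 26.6 in the precursor nuclei. Enpp6 is a gene of the list that chose the rich nuclei, so its level in them is no independent result. The newly formed list as a whole had a median of 31.0 UMIs per 10000 in precursor nuclei, and 4 of 109 reached the limit.

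Similar region ratios of some of these genes were seen in astrocyte nuclei, of which 301 were found by an analogous rule. C4b was at 269 and 98.8 CPM in their control lesion and parenchyma and at 217 and 55.9 in cKO (1.41 and 1.90). Stat3 had ratios of 1.51 and 2.18 there and Cd9 of 1.20 and 1.30. Piezo2 was at 89.5 and 5.81 CPM in control lesion and parenchyma and at 117 and 0 in cKO, and in precursor nuclei at 312 and 0 and at 218 and 0. Kit was at 0 to 5.81 CPM in the astrocyte groups, and in the precursor groups at 51.7 to 91.1 CPM with ratios of -0.08 and -0.86. Col13a1 was at 0 to 5.81 CPM in astrocyte and 0 to 18.7 CPM in precursor groups. Frmd4a was lower in lesional than in parenchymal astrocyte nuclei (-0.74 and -1.40). None of these differences between cell types was tested.

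Transcripts of other cell types moved with region inside the oligodendrocyte nuclei and stand beside every result above. The summed level of 13 myeloid genes was 404 and 785 CPM in lesional and 76.2 and 205 CPM in parenchymal nuclei, with 8 and 7 of the 13 at 0 in the parenchyma, and 2 of 5 compared were higher in the lesion (Gpnmb and Dock8). The 12 fibroblast genes summed to 640 and 476 CPM against 219 and 280, with 1 of 5 higher (Col1a2). The 12 astrocyte genes summed to 272 and 420 CPM in the lesion but to 4325 and 1156 in the parenchyma, and 3 of 4 were lower in the lesion (Slc1a2, Slc1a3 and Gpc5). In the parenchyma 75.8% of the astrocyte UMIs in cKO and 39.0% in control lay in 1 nucleus. None of 9 neuronal genes and 1 inhibitory gene compared passed, and of 4 excitatory genes 1 was lower in the lesion (Rorb). Endothelial, mural and T-cell genes had too few UMIs to compare.

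A total of 27 nuclei, 19 lesional and 8 parenchymal, had 50 or more UMIs per 10000 of a list of another cell type. Without them 69 of 4132 genes were higher in the lesion, 48 of them among the 94, and 46 were lower, 32 of them among the 67. C4b (1.88 and 2.71), Kit (2.62 and 2.89), Piezo2 (1.90 and 2.23), Stat3 (1.70 and 1.35) and Hapln2 (-1.69 and -2.40) still passed. Of the 17 genes named by size in each direction, 7 higher and 7 lower ones no longer passed. All 7 of the higher ones kept ratios above 1 in both libraries: Bcl3 (2.91 and 3.22), Nlrc5 (3.47 and 1.78), Peds1 (2.97 and 3.49), Sox4 (2.57 and 2.70), Ly86 (3.24 and 2.55), Dock8 (2.72 and 2.29) and Sdk2 (3.34 and 2.95). So did 4 of the lower ones, Gm28376, 1700085D07Rik, Gm15478 and Ttyh1 (-1.06 and -1.92, from -2.72 and -2.43). The ratios moved nearer to 0 for Epha5, given above, the non-coding gene Snhg14 (-1.44 and -0.75) in cKO and the adhesion gene Ntm (-0.53 and 0.46). Among genes of the lists, Ctsb (0.98 and 1.55), Mdm2 (0.77 and 0.87) and Srebf2 (-1.16 in both libraries) no longer passed.

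Between genotypes, lesional oligodendrocyte nuclei differed in few genes. A gene was counted when its log2 ratio of cKO over control was 1 or more in size, its interval left out 0 and the female and male nuclei had the same sign. Of 6588 genes compared, 104 were higher in cKO (1.58%) and 87 were lower (1.32%), and the median over all genes was close to 0. The largest ratios on the higher side came from genes with low counts. Tgfbi, a TGFβ-induced matrix protein gene, had 11 UMIs in 11 control and 55 in 32 cKO nuclei (2.20, interval 1.30 to 3.33). Col23a1, a transmembrane collagen gene, had 11 and 55 UMIs in 7 and 26 nuclei (2.20, 1.30 to 3.33). In the parenchymal nuclei they had 3 and 2 UMIs in control and none in cKO, too few to give a direction.

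Other named genes higher in cKO were Adcy6, an adenylyl cyclase gene (3 and 17 UMIs), Arhgef37 (7 and 29), BC034090 (7 and 34), Catspere2 (4 and 21), Rai14 (7 and 29) and Ttpal (4 and 16). Lower in cKO were Trim8, a ubiquitin ligase gene (19 and 4 UMIs, -2.19), Psmd5, a proteasome assembly gene (17 and 4), Tomm20, a subunit of the mitochondrial import channel (19 and 5), Gga1, a Golgi sorting adaptor gene (22 and 7), Pald1 (16 and 5), 5330438D12Rik (31 and 9), A330102I10Rik (25 and 8) and Gm47664 (16 and 5). None of these genes had more than 34 UMIs in a library other than Tgfbi and Col23a1.

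By list, no myelin structure gene of 18 compared differed (median 0.05) and neither did any of 12 myelin lipid genes (median 0.05), 19 axon contact genes, 14 axon growth inhibitor genes or 11 TGFβ genes. Of 18 reactive genes 1 was lower in cKO, the MHC class I gene H2-D1 (62.2 and 25.9 CPM, -1.24). Ftl1, the ferritin light chain, was the only higher gene of 7 iron genes, at 66.1 and 170 CPM (1.35, with 1.73 in female and 1.63 in male nuclei), and has near-identical copies to which reads can be lost. Lower were Bmp4, a signalling ligand gene of newly formed oligodendrocytes (27 and 6 UMIs, -2.15, with 87.9% of its lesional UMIs in the rich nuclei), Zfp488, a lineage transcription factor gene (48.6 and 20.4 CPM, -1.22), and Gria2, an AMPA receptor subunit gene (443 and 192 CPM, -1.20). Bmp4 is itself a gene of the list that chose the rich nuclei. Of 6 precursor genes Xylt1, which starts proteoglycan chains, was higher (49 and 110 UMIs) and the proteoglycan gene Vcan was lower (57 and 29). For Xylt1 the female and male ratios were only 0.14 and 0.67, on 29 and 13 of the 110 cKO UMIs. Without nuclei rich in transcripts of other cell types, Xylt1 was at 93.4 CPM in control and 108 CPM in cKO lesional nuclei. The myeloid genes Gpnmb (50 and 145 UMIs) and Lyz2 (10 and 60) were also higher in cKO, and 4 cKO against 1 control lesional nuclei were rich in myeloid transcripts.

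For the newly formed list the female and male nuclei had opposite signs. Its median log2 ratio of cKO over control was -0.42 over 15 genes, but 0.37 in female and -0.82 in male nuclei. Of its 12 genes with 100 or more UMIs, 11 were higher in cKO in the female and lower in the male nuclei. The number of rich nuclei moved the same way, with 5 of 67 in the control female and 10 of 80 in the cKO female, and 5 of 48 in the control male and 1 of 33 in the cKO male. In the reactive list 8 of 9 such genes had the same sign in both mice, and in the myelin structure list 7 of 14 did. Opposite medians in female and male nuclei were not particular to the newly formed list. They were 0.60 and -1.59 in the precursor list (6 genes) and -2.20 and 2.27 in the myeloid list (7 genes). In the interferon list (6 genes) they were -0.83 and 1.51, and in the antigen presentation list (5 genes) -1.44 and 0.44. With 1 mouse of each sex for each genotype, sex, mouse and genotype cannot be told apart here.

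**Figure D5:**
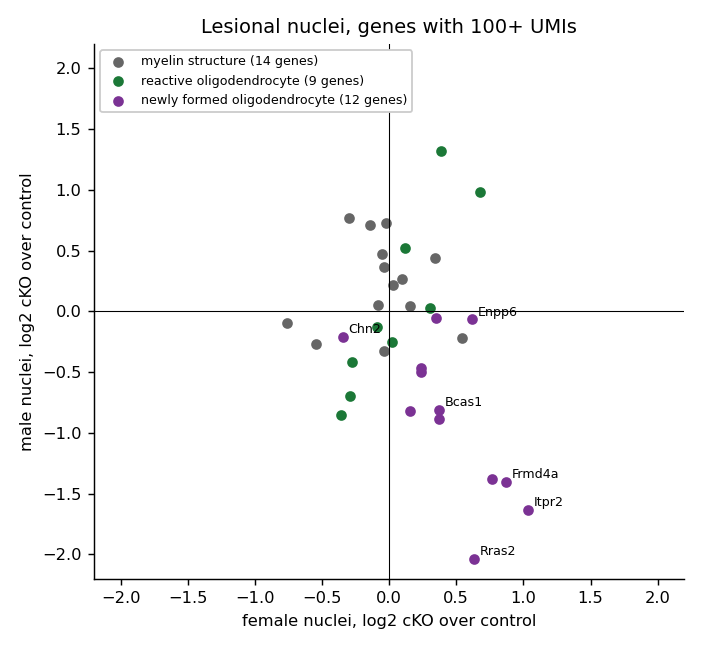
Log2 ratio of cKO over control in lesional oligodendrocyte nuclei of the female (horizontal) and male (vertical) mice for genes with 100 or more UMIs of 3 lists; each point is a gene. Of the 12 newly formed genes 11 lie in the lower right, higher in the female and lower in the male nuclei, while 8 of 9 reactive genes have the same sign.

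In parenchymal nuclei 1978 genes could be compared between genotypes, of which 68 were higher in cKO (3.44%) and 80 were lower (4.04%). These rest on 27 and 26 nuclei, with 9 and 3 of them from the male mice, and no single gene is named from them.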

How the data were processed

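Nuclei from lesion and parenchyma of control and Cxcl12-cKO mice were captured with the 3′ v3.1 chemistry as 1 library for each genotype. The authors aligned reads to GRCm39 with Cell Ranger 9.0.0, as the submitters' processing notes give it, and deposited 4 matrices of raw UMI counts over 33696 gene features and 12 tags. Each matrix was used in full. No annotation of that build was used here, so genes are given without coordinates.

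Oligodendrocyte nuclei were selected by the marker rule, and their counts were summed by library and region. Log2 ratios had 0.5 added to each sum. Intervals were exact binomial or exact conditional binomial intervals at 95% (scipy 1.17.1, numpy 2.4.6 and pandas 2.3.3 in Python 3.11.15). Symbols shared by features were kept apart. Over mice, UMIs summed by mouse and region (3 to 13 parenchymal nuclei for each mouse, without nuclei of unclear sex) were fitted with edgeR 4.0.16 (TMM scaling, mouse as block, glmQLFTest, 3 residual degrees of freedom), a test added after seeing the data. Its p-values measure the spread between mice seen through 2 libraries. Both calling steps were checked on simulated data.

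Region genes were named as the 12 with the largest smaller ratio of the libraries in each direction, and the 5 that were below the other barcodes of a library or of both. All had UMIs in 10 or more nuclei and at most 25% in 1 nucleus. Genotype genes were the 8 largest in each direction. Rule, sex-linked and mitochondrial genes were not named by size. Nuclei, gene lists and limits were chosen with earlier results of these data known, so no list count is independent evidence. Another 13 settings were tried (stricter rules, either mouse alone, thinned nuclei, other scalings and other UMI minimums). Leaving out nuclei rich in newly formed transcripts, or in transcripts of other cell types, was added after seeing the data. Some genes are not reported here.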

Additional observations from a re-analysis of the deposited data

Results flagged for a closer look

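The share of oligodendrocyte nuclei in cKO over control had opposite signs in the female and male mice. Its log2 ratio was 0.27 (-0.21 to 0.77) in female and -0.41 (-1.10 to 0.25) in male lesional nuclei, and 0.41 and -1.25 in parenchymal nuclei. All 4 intervals contain 0, and the differences were not tested.

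In lesional nuclei 5 newly formed genes were higher in cKO in the female and lower in the male mice, each beyond counting error. The female and male log2 ratios were 0.37 and -0.81 for Bcas1, 0.77 and -1.38 for Cnksr3, 0.87 and -1.40 for Frmd4a, 0.37 and -0.89 for the kinase gene Fyn, and 1.03 and -1.63 for the calcium release channel gene Itpr2. Over all genes 73 of 6588 behaved in this opposed way, in either direction. Counting error takes UMIs as independent, but many UMIs of the newly formed list lay in the few rich nuclei. In the lesion these were 10 of 80 cKO and 5 of 67 control female nuclei, and 1 of 33 cKO and 5 of 48 control male nuclei. The 5 genes are therefore not separate observations. These differences were not tested over mice, as each sex of a genotype was 1 mouse.

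Another 6 of 181 genes of the lists compared had region ratios of opposite sign in the libraries, each beyond counting error, as did 34 of all 4494 genes. Lesion over parenchyma was 1.57 in control and -0.99 in cKO for Lingo2, 0.92 and -1.04 for Pcdh7, -0.74 and 0.78 for Apoe, -1.39 and 1.75 for Xylt1, -0.57 and 1.43 for Csmd1, and 0.94 and -1.63 for Syt1. Without nuclei rich in transcripts of other cell types the ratios were -0.04 and 0.08 for Apoe, 0.57 and 0.69 for Lingo2 and -0.02 and -1.20 for Syt1. The signs then stayed opposite for 4 of the 6, with Apoe among them though near 0. Nuclei rich in newly formed transcripts held 54.5% of the lesional Pcdh7 and 60.9% of the lesional Csmd1 UMIs. Without those nuclei Pcdh7 in control was at 0.44 (-0.09 to 1.06) and Csmd1 in cKO at 0.51 (-0.07 to 1.19). Lingo2, Apoe, Xylt1 and Syt1 then stayed opposite beyond counting error. These differences were not tested.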

How the results depend on the processing

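The paired analysis of lesion and parenchyma with the mouse as replicate block, added after seeing the data, gave 47 genes higher and 23 lower in edgeR. It gave 67 and 29 when scaled to summed UMIs, 47 and 23 with robust estimation of the spread, and 0 to 65 and 0 to 17 without each mouse in turn. Of the counts without 1 mouse, 0 and 0 were without the cKO male, 11 and 11 without the cKO female, 18 and 17 without the control male and 65 and 14 without the control female. No such fit was made between genotypes, each of which was 1 library. Over the 13 settings and those added later, the share of oligodendrocyte nuclei stayed higher in lesion than parenchyma in both libraries, with log2 ratios of 1.07 to 1.86 in control and 1.14 to 2.16 in cKO (2.16 with all barcodes thinned to the UMI minimum and 2.03 in the male mouse alone). Thinning also moved cKO over control in the lesion to 0.46. Counts of genes followed the number of UMIs and nuclei. With each nucleus thinned to the UMI minimum, 17 genes were higher and 10 lower in the lesion, 50 were higher and 36 lower in cKO in the lesion, and 4 and 5 in the parenchyma. With no UMI of other cell types allowed, the region counts were 62 and 40 and the parenchymal count higher in cKO was 36, which was 40 without nuclei rich in transcripts of other cell types. The female mouse alone gave 46 and 11 region genes and the male mouse alone 21 and 8. With 40 or more UMIs for each gene the lesion-lower count was 35, and the genotype counts were 52 and 38 in the lesion and 25 and 32 in the parenchyma. With no minimum they were 137, 209 and 145, and 143 and 131.

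Region ratios of named genes changed sign in some settings. In the female mouse alone they were 1.77 for 9330111N05Rik and 1.20 for Ntm in cKO and -0.16 for Col20a1 in control. In the male mouse alone the cKO ratios, against 3 parenchymal nuclei and dependent on the 0.5 added, were -0.19 for Bcl3, -0.84 for D430041D05Rik, -0.48 for Dock8, 0.25 for Epha5, -0.11 for Kit, -1.33 for Sdk2 and -0.48 for Sox4, and the control ratios were -0.10 for Dock8, 0.64 for Epha5, 1.01 for Ntm and 0.39 for Ttyh1. Thinning gave -0.19 for Col20a1 and -0.37 for Nlrc5 in cKO, and -0.74 for Ttpal in cKO over control. Without nuclei rich in other cell types Ntm was at 0.46 in cKO. The cause was not tested for any of these.

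Depth limited the parenchyma most, where 3 UMIs stood for up to 28.6 CPM, so genes at 0 there have only lower bounds. All 4 mice were seen through 2 libraries.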
